A study of Mus musculus with 4 samples.

Results

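Hox genes encode transcription factors with a homeodomain, and mice carry 39 of them in the clusters HoxA, HoxB, HoxC and HoxD. They were chosen here by symbol alone (Hox, a cluster letter from a to d and a number), a rule that uses no measured value and that found 39 of the 32285 genes counted, with 11 in HoxA, 10 in HoxB, 9 in HoxC and 9 in HoxD. Genes at the same place in different clusters form a paralog group. Within a cluster the order of the genes follows the order of their expression domains along the body axis and along the limb. In the developing limb the genes of group 10 are needed for the stylopod, which holds the femur, those of group 11 for the zeugopod, which holds the tibia and fibula, and those of group 13 for the autopod, the foot. The knee forms between stylopod and zeugopod, so the levels of these groups bear on where along the limb the collected cells came from.

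The study profiled cells from the future knee region of mouse hindlimbs by droplet single-cell RNA sequencing of transcript 3' ends. Each of its 4 groups has 1 library: control embryos at E13.5, control embryos at E14.5 (both labelled as without Cre and titled WT), and 2 groups of E14.5 embryos labelled G1KO (Prx1cre;Glut1f/f;Glut3f/+) and DCKO (Prx1cre;Glut1f/f;Glut3f/f). Slc2a1 encodes the glucose transporter Glut1 and Slc2a3 encodes Glut3, and Prx1Cre acts in limb mesenchyme, so muscle, endothelial, glial and blood cells keep their floxed alleles. The number of embryos pooled in each library, their strain background and whether controls titled WT carry floxed alleles were not given in the sources used here.

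The E13.5 control library held 12769 cell barcodes with 100344565 unique molecular identifiers (UMIs, each standing for 1 counted transcript), and the E14.5 control library held 9707 with 84188147. The library labelled G1KO held 11690 barcodes with 97110697 UMIs, and the library labelled DCKO held 11602 with 91574038. After the filter on genes and mitochondrial UMIs, 12446, 9305, 11264 and 11305 cells were kept in the order E13.5 control, E14.5 control, library labelled G1KO and library labelled DCKO, which is the order of all series of 4 values below. Pairs of libraries shared 25 to 40 barcodes, and 24 to 37 of these passed the filter in both.

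The targeted genes came first. In mesenchymal cells Slc2a1 stood at 52.1, 68.7, 377 and 446 CPM (the UMIs of a gene scaled to an equal total in every class and library), so the libraries labelled G1KO and DCKO held more of it than the E14.5 control, with log2 ratios of 2.46 (95% interval 2.41 to 2.50) and 2.70 (2.66 to 2.74). Slc2a3 stood at 5.22, 3.46, 4.21 and 2.35 CPM, with log2 ratios of 0.28 (0.04 to 0.53) for the library labelled G1KO and -0.56 (-0.84 to -0.28) for the library labelled DCKO. In the library labelled DCKO Slc2a3 was lower in interzone-like (log2 ratio -1.633, -3.037 to -0.459) and chondrocyte-like cells (-0.965, -1.364 to -0.573). In fibroblast-like cells of that library it was higher (14.3 against 6.30 CPM, log2 ratio 1.18, 0.48 to 1.91). Slc2a1 thus went against both labels, and Slc2a3 differed in direction between classes. The higher Slc2a1 was not limited to mesenchyme, though the part of free RNA or joined droplets in other classes was not tested. In muscle-like cells it stood at 24.7 CPM in the E14.5 control and at 56.3 and 72.1 CPM in the libraries labelled G1KO and DCKO. In glial-like cells it stood at 30.4, 139.5 and 151.5 CPM, from 6, 60 and 10 UMIs. Endothelial-like cells held 78.4, 125.6 and 116.8 CPM, with log2 ratios of 0.68 (-0.092 to 1.531) and 0.575 (-0.196 to 1.426), whose intervals include 0. UMIs are read at 3' ends, so transcripts of a floxed allele that keep their 3' end are counted like intact ones, and these values check neither label. Every comparison with a mutant rests on 1 such library and cannot be repeated without it.

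The libraries also differed in the sex of their embryos. Xist, the transcript of the inactive X chromosome, was found in 64.7%, 0.172%, 92.2% and 91.2% of all kept cells, and Y-linked genes in 18.4%, 65.9%, 0.0355% and 0.0265%. The E14.5 control therefore came from males and both libraries labelled as mutants came from females, while the E13.5 control held cells of both sexes. Sex and genotype cannot be told apart at E14.5. Sex make-up also differed between the controls, so age and sex cannot be fully told apart there. With 1 library per group no difference between groups can be separated from differences between embryos or dissections. The intervals below cover counting error only.

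Mesenchymal cells, 9555, 8024, 9282 and 9862 of them, are the cells in which the limb's Hox genes were measured first. The 39 genes together stood at 579 (574 to 585), 365 (361 to 370), 323 (319 to 327) and 249 (246 to 252) CPM, from 43516, 26038, 26010 and 20538 UMIs. Hox transcripts were thus most frequent in the E13.5 control and least frequent in the library labelled DCKO. UMIs come from 3' ends, so levels of different genes are compared without scaling by length.

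Most of these UMIs came from few genes. Of the 39 genes, 9 reached 20 CPM in mesenchymal cells of at least 1 library, and these 9 held 89.3%, 87.7%, 87.0% and 87.9% of all Hox UMIs. Genes below 1 CPM numbered 18, 19, 23 and 23, of which 3, 4, 3 and 3 had no UMI at all. Each of the other 30 genes stood at or below 11.3, 7.80, 7.66 and 5.82 CPM.

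Group 10 genes, which pattern the stylopod, made up the largest paralog group in all 4 libraries, with 297, 191, 169.7 and 138 CPM. Hoxa10 was the most abundant Hox gene in each library, at 194 (191 to 197), 128 (126 to 131), 106 (104 to 108) and 83.7 (81.8 to 85.7) CPM. Hoxc10 was next, at 91.6 (89.5 to 93.8), 58.4 (56.7 to 60.2), 60.1 (58.4 to 61.8) and 52.7 (51.1 to 54.3) CPM. Hoxa10 alone gave 33.5%, 35.2%, 32.7% and 33.6% of all Hox UMIs, and Hoxd10 was far below its paralogs. The values for Hoxd10 were 11.3, 4.56, 3.80 and 1.83 CPM.

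Group 11 genes, which pattern the zeugopod, differed most between the controls among paralog groups with at least 20 CPM at E13.5. Hoxd11 stood at 40.8 (39.4 to 42.3) CPM in the E13.5 control and at 8.03 (7.39 to 8.72), 6.18 (5.65 to 6.75) and 4.56 (4.11 to 5.04) CPM in the E14.5 libraries. Hoxc11 stood at 27.3, 6.37, 6.49 and 5.90 CPM. Both genes were thus already low in the E14.5 control, whereas Hoxa11 was spread more evenly over the libraries. Its levels were 35.0 (33.7 to 36.4), 24.2 (23.1 to 25.4), 15.1 (14.3 to 16.0) and 11.04 (10.3 to 11.8) CPM.

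Group 9 and group 8 genes, which lie next to group 10 on its anterior side, filled most of the remainder. Hoxa9 stood at 46.9, 43.7, 38.7 and 28.7 CPM, and Hoxc9 at 29.0, 24.1, 23.9 and 16.3 CPM. Hoxd9 stood at 30.2, 14.8, 12.8 and 8.29 CPM, and Hoxc8 at 22.0, 12.2, 12.3 and 7.60 CPM. Over all mesenchymal cells Hoxa9 and Hoxc9 were nearly as abundant in the E14.5 control as at E13.5, while Hoxd9 and Hoxc8 were lower there. Within chondrocyte-like cells, whose share of the UMIs was larger at E14.5, Hoxc9 was 1.71-fold and Hoxa9 1.43-fold lower at E14.5.

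The anterior groups were present at low levels, with 14.4, 10.5, 10.6 and 8.34 CPM for groups 1 to 4 together, where Hoxc4 was the most abundant gene. Among the genes of groups 5 to 8 below 20 CPM, Hoxc6 stood at 9.28, 7.80, 7.66 and 5.82 CPM. Hoxa5 stood at 7.19, 6.37, 6.99 and 5.20 CPM. These anterior genes varied less between libraries than group 11.

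Genes of groups 12 and 13, which pattern the foot, were close to absent. Hoxa13 had 122, 84, 27 and 5 UMIs (1.62, 1.18, 0.336 and 0.0606 CPM), Hoxd12 had 62, 3, 3 and 4, and Hoxd13 had 30, 5, 11 and 9. Hoxc13 had 0, 0, 5 and 1, Hoxc12 had 1 UMI at E13.5 and none in the E14.5 libraries, and Hoxb13 had none in any library, which allows at most 0.0399, 0.0421, 0.0373 and 0.0364 CPM. Foot genes were therefore rare beside the groups of the thigh and the lower leg, and Hoxa13 was the gene among them with the most UMIs in both controls.

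Hoxa13 transcripts, few as they were, were spread over single cells. They were found in 111, 80, 26 and 5 mesenchymal cells, of which 47, 38, 9 and 0 also held a UMI of group 11. Interzone-like cells accounted for 68, 31, 8 and 1 of the cells with Hoxa13, and chondrocyte-like cells for 22, 30, 13 and 3. In the E13.5 control 61.3% of the mesenchymal cells with Hoxa13 were thus interzone-like. Muscle-like cells of the controls held Hoxa13 at levels like those of interzone-like cells, with 4.17 and 4.43 CPM. Hoxd13 was found in 26, 4, 10 and 8 mesenchymal cells, of which 0, 0, 2 and 0 were interzone-like.

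The 4 clusters contributed unequally. HoxA held 51.5%, 58.8%, 54.7% and 54.8% of the Hox UMIs, HoxC 32.3%, 31.3%, 35.9% and 37.2%, and HoxD 15.8%, 9.57%, 8.97% and 7.52%. HoxB, which has no group 10 to 12 genes, came to 2.45, 1.29, 1.22 and 1.41 CPM for its 10 genes together. Mesenchymal cells of the knee region thus used HoxA and HoxC, with HoxD prominent at E13.5 and HoxB barely present in any library.

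**Figure D1:**
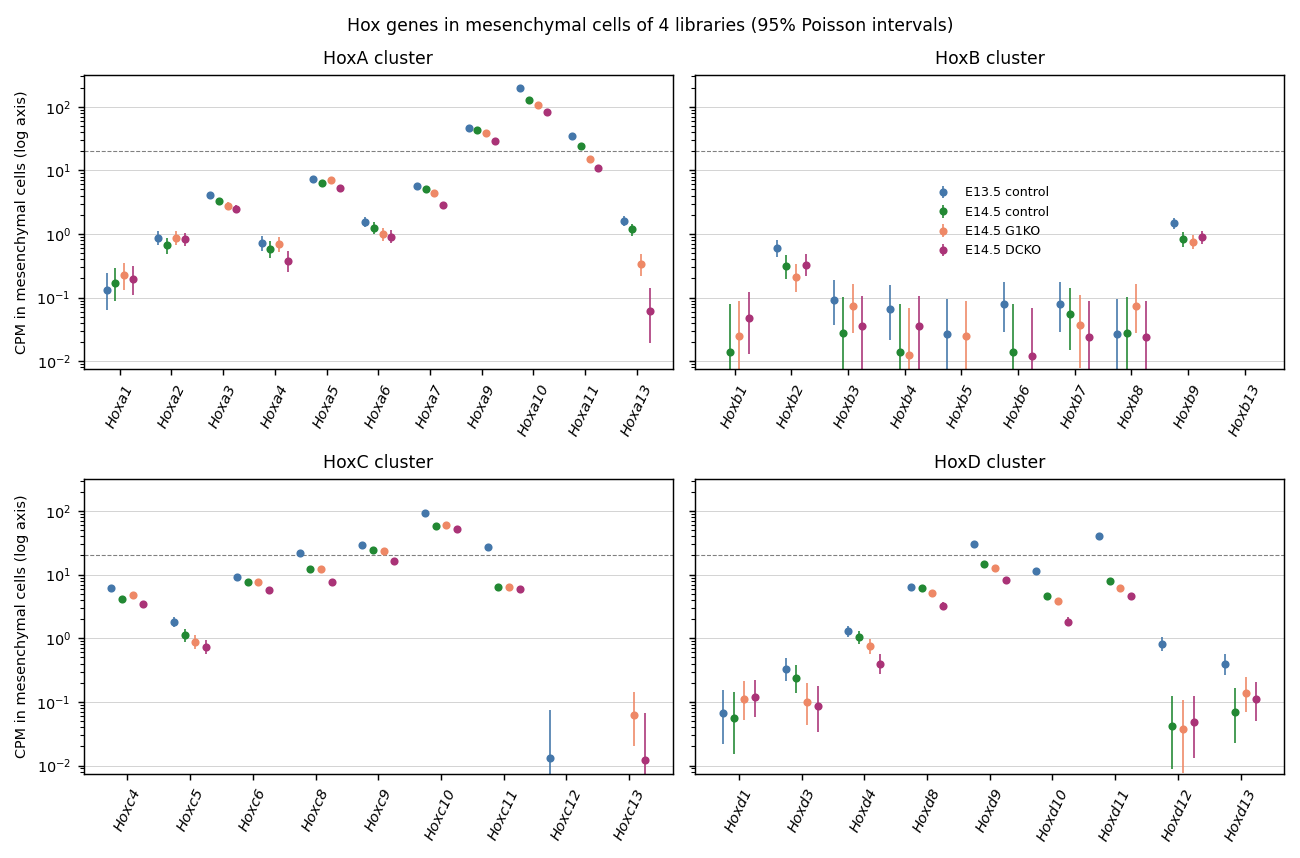
Level of each Hox gene in mesenchymal cells (CPM, log axis) by cluster, with 1 color per library, points for summed UMIs and bars for the 95% counting interval; genes with 0 UMIs are not drawn and the dashed line marks 20 CPM. Hoxa10 and Hoxc10 stand highest in every library, and Hoxd11 goes from 40.8 CPM at E13.5 to 8.03 CPM in the E14.5 control.

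Some neighbors cannot be told apart by their reads. Annotated transcripts of 11 Hox genes overlap another counted gene on the same strand, among them Hoxa3 with Hoxa4 to Hoxa6 and Hoxc5 with Hoxc6, Hoxc8, Hoxc9 and Hoxc10, so the division of UMIs within these sets is uncertain. Counted genes on the opposite strand overlap 14 Hox genes, some of them the same, such as Hoxa11 with Hoxa11os.

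Position along the limb was summarized as the UMIs of group 11 per UMI of group 10, that is, lower leg genes per thigh gene. In mesenchymal cells this came to 0.347, 0.202, 0.164 and 0.156, or log2 ratios of -1.53 (-1.56 to -1.49), -2.31 (-2.37 to -2.25), -2.61 (-2.68 to -2.55) and -2.68 (-2.76 to -2.61). Thigh genes therefore outnumbered lower leg genes in all 4 libraries, with more group 11 per group 10 at E13.5 than at E14.5 and slightly less in both libraries labelled as mutants than in the E14.5 control.

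Each cluster gave its own ratio of group 11 to group 10. In HoxA the ratio was 0.180, 0.189, 0.143 and 0.132, in HoxC 0.298, 0.109, 0.108 and 0.112, and in HoxD 3.61, 1.76, 1.62 and 2.49. HoxA thus showed no lower ratio in the E14.5 control than at E13.5, HoxC and HoxD did, and HoxD was the cluster where group 11 exceeded group 10. Between the E14.5 libraries the HoxA ratio was lower in both libraries labelled as mutants, the HoxC ratio was nearly equal, and the HoxD ratio was highest in the library labelled DCKO.

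The ratio of group 11 to group 10 also differed between cell classes. Interzone-like cells gave 0.278, 0.246, 0.180 and 0.190, chondrocyte-like cells 0.287, 0.171, 0.145 and 0.140, and fibroblast-like cells 0.416, 0.229, 0.195 and 0.196. In each of these 3 classes it was highest at E13.5, then in the E14.5 control, then in both libraries labelled as mutants. Muscle-like cells, which enter the limb from the somites, gave 0.575, 0.416, 0.475 and 0.600. These ratios describe the collected cells; whether the dissections were equal was not tested and cannot be told apart from age, genotype or class composition.

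The make-up of the mesenchymal cells moved with these results. Chondrocyte-like cells held 29.9%, 69.3%, 66.7% and 77.8% of the mesenchymal UMIs, and interzone-like cells 23.0%, 12.4%, 12.1% and 5.84%. The share of chondrocyte-like UMIs was thus highest where the Hox sum was lowest. With each class weighted by its share in the reference library (chosen after seeing the data), the log2 ratio of the Hox sum moved from -0.67 to -0.47 for E14.5 control over E13.5 control, from -0.18 to -0.19 for the library labelled G1KO over control and from -0.55 to -0.49 for the library labelled DCKO over control.

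Class by class, the Hox sum was lowest in chondrocyte-like cells among the mesenchymal classes of the E14.5 libraries. It came to 501, 323, 289 and 210 CPM there, against 637, 506, 396 and 349 CPM in interzone-like cells and 592, 399, 374 and 419 CPM in fibroblast-like cells. In interzone-like and chondrocyte-like cells alike, the order of the 4 libraries was that of all mesenchymal cells. In fibroblast-like cells the sums of the library labelled DCKO and the E14.5 control were close, with a log2 ratio of 0.072 (-0.03 to 0.17).

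Cells outside the mesenchyme carried other members of the family. HoxB came to 89.2 (65.8 to 118), 101 (63.6 to 154), 101 (77.5 to 130) and 150.2 (122 to 183) CPM in endothelial-like cells, from 48, 22, 62 and 99 UMIs. In glial-like cells it came to 193 (149 to 246), 157, 165 and 106 CPM, from 66, 31, 71 and 7 UMIs. HoxB, nearly silent in limb mesenchyme, thus made up a sizeable part of the Hox UMIs of endothelial-like and glial-like cells in all 4 libraries.

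Hoxb9 was the main HoxB gene of glial-like cells, with 34, 16, 35 and 6 UMIs (99.4, 81.1, 81.4 and 90.9 CPM). In endothelial-like cells Hoxb4 had 10, 5, 13 and 33 UMIs (18.6, 23.1, 21.2 and 50.1 CPM) and was the most abundant Hox gene of the library labelled DCKO. These cells held Hoxb7 with 16, 7, 17 and 29 UMIs (29.7, 32.3, 27.7 and 44.0 CPM). They also held Hoxd8 with 12, 7, 22 and 24 UMIs (22.3, 32.3, 35.9 and 36.4 CPM). Group 11 was almost missing from endothelial-like cells of the E14.5 libraries, with 16 UMIs at E13.5 and 1 in each library of E14.5.

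Muscle-like cells had less Hox in all, with 243, 183, 163 and 138 CPM, and a different leading gene. Hoxc10 stood at 50.8, 51.2, 38.5 and 36.6 CPM there, above Hoxa10 at 40.8, 23.4, 24.6 and 14.9 CPM. In mesenchymal cells the order of these genes was the reverse. Erythroid-like cells held as much Hoxa10 or more in every library, and the part of free RNA in the muscle-like values was not tested.

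Blood cells, which do not derive from limb mesenchyme, also held Hox UMIs. Macrophage-like cells held 128, 70.1, 38.4 and 49.4 CPM of Hox, and erythroid-like cells 143, 76.3, 177 and 74.9 CPM. Hoxa10 was among the genes found there, at 55.6, 25.8, 68.4 and 24.2 CPM in erythroid-like cells. The part of free RNA or joined droplets in these values was not tested.

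**Figure D2:**
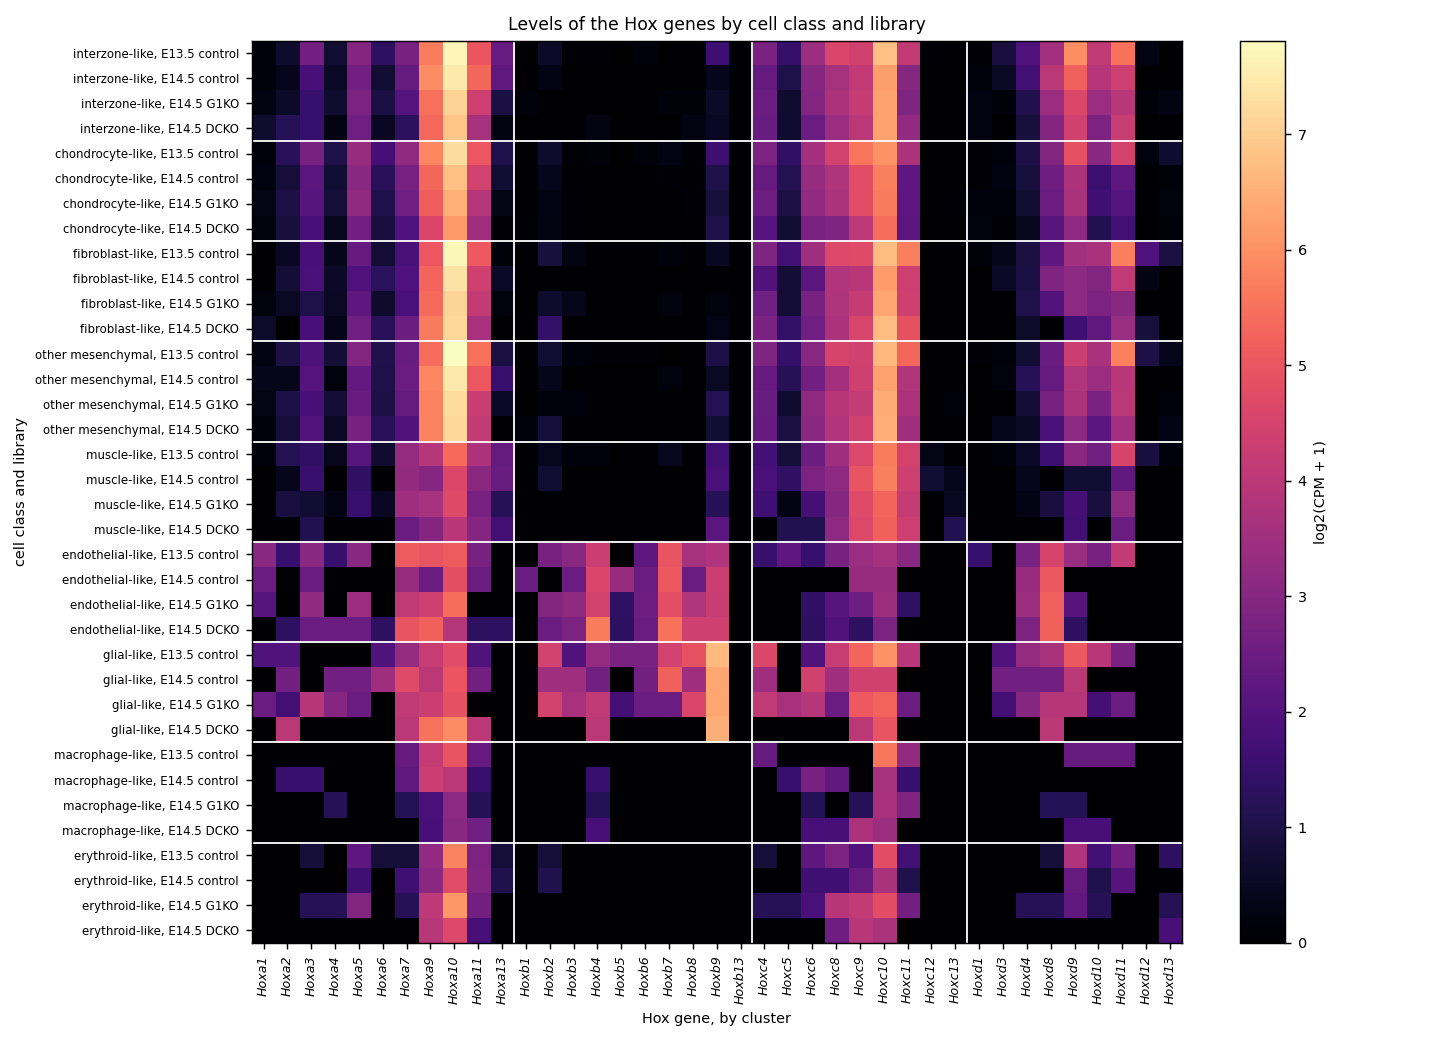
Level of each of the 39 Hox genes (columns, by cluster) in 9 cell classes of the 4 libraries (rows), as log2 of CPM plus 1; classes with few cells read high from a single UMI. HoxB is dark across mesenchymal classes and brighter in endothelial-like and glial-like cells, where it reached 150.2 and 193 CPM.

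Per cell, after thinning to 3000 UMIs, any Hox gene was found in 77.6% (76.8 to 78.5), 63.0% (61.9 to 64.1), 60.0% (59.0 to 61.1) and 51.2% (50.2 to 52.2) of mesenchymal cells, while 367, 330, 439 and 620 shallower cells were left out. Without thinning the shares were 92.7%, 87.4%, 84.4% and 76.6%, at median depths of 6524, 7541, 7114 and 6811 UMIs. Fewer cells held Hox transcripts where the summed level was lower. In macrophage-like cells the thinned share was 30.6%, 15.9%, 10.7% and 11.3% (unthinned 23.5%, 16.4%, 15.5% and 13.6%, at median depths of 5641.5, 2649, 7925.5 and 3180.5 UMIs).

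Erythroid-like cells gave thinned shares of 17.7%, 13.2%, 31.6% and 11.3% and unthinned shares of 26.8%, 23.3%, 49.4% and 22.7%, at median depths of 7604, 8728, 7651 and 7823 UMIs. Group 10 was found in 55.4%, 42.6%, 40.3% and 34.7% of mesenchymal cells and group 11 in 23.2%, 11.1%, 8.59% and 6.79%. Thigh genes were thus detected in more cells than lower leg genes in every library.

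Cells with transcripts of both groups at 3000 UMIs made up 13.54%, 5.41%, 4.10% and 2.98% of mesenchymal cells. The product of the separate shares was 12.8%, 4.75%, 3.46% and 2.35%, and the unthinned shares were 32.6%, 19.2%, 14.1% and 10.0%. Joint detection in mesenchymal cells was thus slightly above the product in all 4 libraries, though the interval of the E13.5 control (12.8% to 14.3%) reached it. Interzone-like cells of the E13.5 control went the other way, with 12.27% against a product of 12.4%. Doublets were kept, and their part in joint detection was not tested.

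Between the controls, Hox genes were lower at E14.5 than at E13.5. Among mesenchymal cells 12 of the 28 Hox genes with at least 20 UMIs stood past 1.5-fold lower at E14.5 (17.9% of all 16429 genes tested were lower by that rule) and 0 stood past 1.5-fold higher (10.5% of all genes). Their median log2 ratio was -0.51 against -0.15 for all genes, and 27 of the 28 ratios were below 0. The other 11 Hox genes had too few UMIs.

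The strongest of these differences between the controls lay at the posterior end of HoxD and HoxC. Hoxd11 was 5.08-fold lower (log2 ratio -2.35, -2.48 to -2.22) and Hoxc11 4.29-fold lower (-2.10, -2.25 to -1.95). Hoxd10 was 2.48-fold lower (-1.31, -1.50 to -1.12), Hoxd9 2.04-fold lower (-1.03) and Hoxc8 1.80-fold lower (-0.85). Posterior HoxD genes and Hoxc11 thus differed more between the controls than the most abundant genes of the family.

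Hoxc10 (-0.65, 1.57-fold lower) and Hoxa10 (-0.60, 1.51-fold lower) passed 1.5-fold narrowly, and with TMM factors they and Hoxc5 did not. Among genes with few UMIs, Hoxd12 (62 against 3 UMIs) had a log2 ratio of -4.29 (-6.61 to -2.68) and Hoxd13 one of -2.51 (-4.23 to -1.13). Hoxb2 (-0.96), Hoxb9 (-0.84) and Hoxc5 (-0.69) complete the 12. Hoxa9 (-0.10) and Hoxc9 (-0.27) stayed within 1.5-fold.

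Within single classes Hox genes were also lower at E14.5. In chondrocyte-like cells 13 of 24 Hox genes passed 1.5-fold, each of them lower at E14.5 (23.8% of all genes passed in either direction), with a median of -0.65 against -0.13. In interzone-like cells 8 of 21 passed, again each lower (21.6% of all genes), with a median of -0.50 against -0.04. Hoxd11 was 5.81-fold lower in chondrocyte-like cells (-2.54), so this gene was lower at E14.5 within a class as well. In fibroblast-like cells 12 of 18 passed (21.6% of all genes), of which 11 were lower and 1, Hoxd8 (0.77, -0.002 to 1.54), was higher, with a median of -0.75 against -0.07.

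In chondrocyte-like cells the 13 genes were Hoxa2, Hoxa3, Hoxa6, Hoxa11, Hoxa13, Hoxb2, Hoxb9, Hoxc8, Hoxc9, Hoxc11, Hoxd9, Hoxd10 and Hoxd11, and in interzone-like cells the 8 were Hoxa3, Hoxa6, Hoxb9, Hoxc5, Hoxc8, Hoxc11, Hoxd9 and Hoxd11. The 11 lower genes of fibroblast-like cells were Hoxa5, Hoxa11, Hoxc4, Hoxc5, Hoxc6, Hoxc8, Hoxc9, Hoxc11, Hoxd10, Hoxd11 and Hoxd12. The intervals included 0 for Hoxa13 and Hoxb2 in chondrocyte-like, for Hoxa6 and Hoxc5 in interzone-like and for Hoxa5 and Hoxc5 in fibroblast-like cells. Hoxa2 (-0.84, -1.57 to -0.09) and Hoxa6 (-0.78, -1.32 to -0.23) of chondrocyte-like cells stood below 3 CPM. Hoxa11, the HoxA gene of the lower leg, went the other way in interzone-like cells. Its log2 ratio of E14.5 over E13.5 there was 0.37 (0.17 to 0.56), while it stood past 1.5-fold lower in chondrocyte-like cells. Hoxd8 (0.486, 0.153 to 0.815) and Hoxa9 (0.254, 0.096 to 0.411) were also above 0 in interzone-like cells.

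The 2 mutant comparisons share the E14.5 control library, so their values are given side by side and are not independent. In the library labelled G1KO 3 of 26 Hox genes stood past 1.5-fold lower in mesenchymal cells (5.37% of all 16284 genes tested) and 0 past 1.5-fold higher (4.39%), with a median log2 ratio of -0.19 against -0.09 for all genes. In the library labelled DCKO 14 of 26 stood lower (14.7% of all 16197 genes tested) and 0 higher (4.45%), with a median of -0.60 against -0.20. With TMM factors the 14 became 9, without Hoxa4, Hoxa9, Hoxa10, Hoxc5 and Hoxc8. More Hox genes were thus below the control in the library labelled DCKO than in the library labelled G1KO, as were more genes in all.

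Hoxa11 was past 1.5-fold lower in both libraries labelled as mutants. Its log2 ratio was -0.68 (-0.79 to -0.58, 1.61-fold lower) for the library labelled G1KO and -1.13 (-1.25 to -1.02, 2.19-fold lower) for the library labelled DCKO. Among the other group 11 genes, Hoxd11 was 1.76-fold lower (-0.82) in the library labelled DCKO and within 1.5-fold in mesenchymal cells of the library labelled G1KO, and Hoxc11 was within 1.5-fold in both.

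Hoxa13 gave the largest ratios, from few UMIs. With 84 UMIs in the control, it had 27 in the library labelled G1KO (-1.81, -2.49 to -1.17) and 5 in the library labelled DCKO (-4.28, -5.94 to -3.00). Hoxd3 was the remaining gene past 1.5-fold in the library labelled G1KO (-1.26, -2.68 to 0.03), and its interval included 0. Hoxa13 cells were thus few in the control and rarer still in the library labelled DCKO.

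The most abundant genes of group 10 differed less than Hoxa11. Hoxa10 had log2 ratios of -0.28 for the library labelled G1KO and -0.62 (1.53-fold lower) for the library labelled DCKO. Hoxc10 had 0.04 and -0.15, within 1.5-fold in both. Hoxc10, the thigh gene of HoxC, was thus the gene closest to the control level in the library labelled DCKO among Hox genes with at least 20 CPM in the E14.5 control.

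Further genes of the library labelled DCKO were past 1.5-fold. Hoxd10 was 2.49-fold lower (-1.32) and Hoxd9 1.78-fold lower (-0.83). Hoxc8 (-0.68), Hoxa9 (-0.60), Hoxd8 (-0.90) and Hoxa7 (-0.83) were also past 1.5-fold, as were Hoxd3 (-1.49), Hoxd4 (-1.38), Hoxc5 (-0.60) and Hoxa4 (-0.61, -1.33 to 0.09, which includes 0). Hoxc9 (-0.56) stayed just within it. In the library labelled G1KO the abundant genes Hoxc8 (0.01), Hoxc9 (-0.01) and Hoxa9 (-0.17) were near the control.

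Set directly against each other in mesenchymal cells, the libraries labelled DCKO and G1KO differed at 9 of 26 Hox genes. Of these 8 were lower in the library labelled DCKO (9.98% of all genes) and 1 was higher (3.16% of all genes), with a median log2 ratio of -0.43 against -0.10. The lower genes included Hoxa13 (-2.47), Hoxd10 (-1.05), Hoxc8 (-0.70), Hoxd9 (-0.63) and Hoxd8 (-0.63), and the higher gene was Hoxb2 (0.63, -0.30 to 1.60). The remaining lower genes were the anterior Hoxd4 (-0.90), Hoxa4 (-0.89) and Hoxa7 (-0.65). With TMM factors, which raised each of these ratios by 0.103, Hoxa7, Hoxd8 and Hoxd9 came within 1.5-fold.

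In chondrocyte-like cells of the library labelled G1KO most Hox genes were near the control, and Hoxa11 (-0.58, -0.72 to -0.44) was 1.49-fold lower. There 1 of 25 Hox genes, Hoxa13 (-1.37), passed 1.5-fold (11.7% of all genes passed in either direction), and the median log2 ratio was -0.10 against -0.09. In those of the library labelled DCKO 16 of 24 passed, each of them lower (19.9% of all genes), with a median of -0.68 against -0.17. Hoxa11 (-1.01), Hoxc8 (-0.99) and Hoxc9 (-0.80) were among them, so abundant Hox genes of HoxA and HoxC were lower in chondrocyte-like cells of that library. The others were Hoxa4, Hoxa6, Hoxa7, Hoxa9, Hoxa10, Hoxa13, Hoxb2, Hoxc5, Hoxc6, Hoxd4, Hoxd9, Hoxd10 and Hoxd11, of which Hoxb2 had an interval that includes 0.

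Interzone-like cells, from which joint tissues form, were fewer in the library labelled DCKO, with 2103, 1021, 1155 and 513 cells across the 4 libraries. Over the control, 5 of 18 Hox genes passed 1.5-fold in the library labelled G1KO, each of them lower (11.8% of all genes passed in either direction), with a median of -0.42 against -0.13. Of the same number, 10 passed in the library labelled DCKO, again each lower (19.0% of all genes), with a median of -0.60 against -0.14. Hoxa11, Hoxa13, Hoxd4, Hoxd8 and Hoxd9 were lower in both, and Hoxa7, Hoxa9, Hoxa10, Hoxc6 and Hoxd10 in the library labelled DCKO. The intervals of Hoxd4 in both and of Hoxc6 included 0.

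Hoxa11 in interzone-like cells stood at 39.4 CPM in the E14.5 control, 19.1 CPM in the library labelled G1KO (log2 ratio -1.04) and 11.2 CPM in the library labelled DCKO (-1.81, 3.52-fold lower). Hoxd11 in the same cells stood at 19.5 CPM in the E14.5 control and 14.4 CPM in the library labelled G1KO (-0.435, -0.767 to -0.105). In the library labelled DCKO it stood at 18.0 CPM (-0.11, -0.50 to 0.27). Hoxc10 was also near the control there (0.06). The HoxA gene of the lower leg was thus lower in interzone-like cells of both libraries labelled as mutants. Its HoxD paralog was within 1.5-fold in both, with an interval below 0 in the library labelled G1KO.

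Markers of other classes moved with these interzone-like values. The summed level of the 8 chondrocyte markers in interzone-like cells was 2749, 5144, 6232 and 6710.4 CPM, and that of the 5 interzone markers was 3056, 2883, 2262 and 1412 CPM. An interzone-like cell held a median of 4, 4, 5 and 6 chondrocyte markers. The part of this shift in the Hox ratios was not tested.

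Fibroblast-like cells behaved differently. For the library labelled DCKO over control, 4 of 16 Hox genes were past 1.5-fold higher (4.62% of all genes) and 5 past 1.5-fold lower (7.48% of all genes), with a median of 0.16 against -0.06. The lower genes were Hoxa11 (-0.77), Hoxd9 (-1.81), Hoxd10 (-0.77, -1.81 to 0.21, which includes 0), Hoxd11 (-0.83) and Hoxd8, which had 27 UMIs in the control (6.30 CPM) and 0 in the library labelled DCKO (at most 0.823 CPM). The higher ones were Hoxc9 (0.61, 0.12 to 1.11) and, with intervals that include 0, Hoxc4 (0.92, -0.14 to 2.04), Hoxa5 (0.82, -0.32 to 2.004) and Hoxa7 (0.74, -0.42 to 1.93). The HoxA sum was near the control (-0.09, -0.23 to 0.04), the HoxC sum was higher (181 against 126 CPM, 0.52, 0.36 to 0.69), and HoxD genes were lower in this class. For the library labelled G1KO over control, 4 of 15 passed 1.5-fold in either direction (9.29% of all genes), Hoxd11 (-1.17, -1.71 to -0.62) and Hoxd8 (-1.05) lower and, with intervals that include 0, Hoxc4 (0.70, -0.26 to 1.75) and Hoxc6 (0.69, -0.20 to 1.66) higher.

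**Figure D3:**
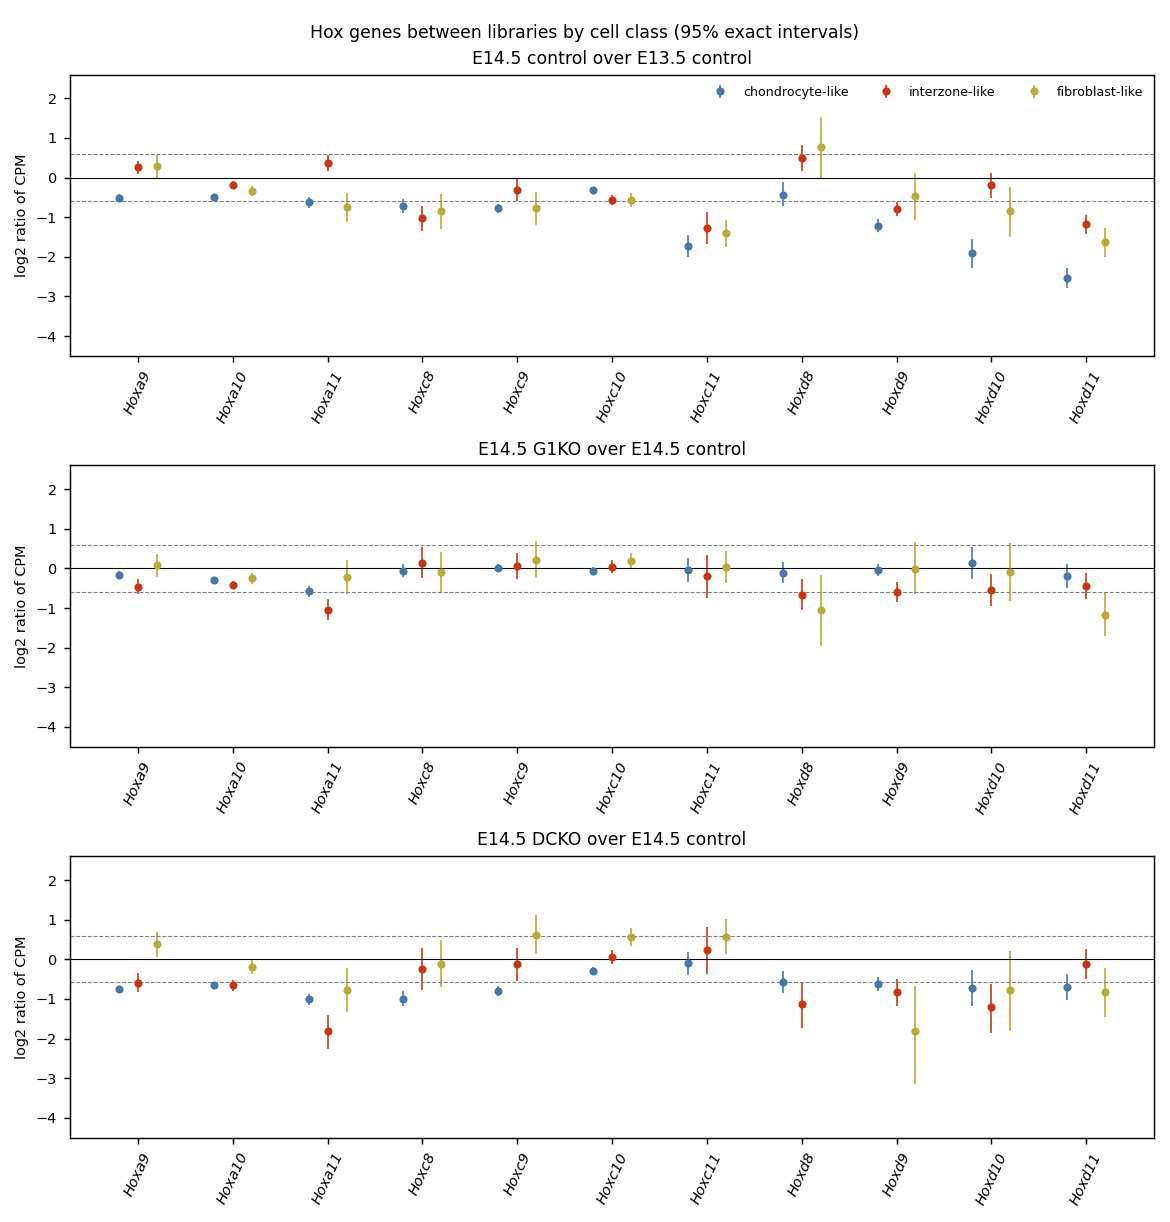
Log2 ratio of CPM for 11 Hox genes of groups 8 to 11 in chondrocyte-like, interzone-like and fibroblast-like cells, for E14.5 control over E13.5 control and the libraries labelled G1KO and DCKO over the E14.5 control, with 95% counting intervals and dashed lines at 1.5-fold; points with 0 UMIs on a side are not drawn. Hoxa11 lies at -1.04 and -1.81 in interzone-like cells of the libraries labelled G1KO and DCKO, and Hoxd11 at -2.54 in chondrocyte-like cells between the controls.

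Within each library, interzone-like cells could be set beside chondrocyte-like cells of the same embryos and dissection. The Hox sum was higher in interzone-like cells in all 4 libraries, with log2 ratios of 0.35 (0.31 to 0.39), 0.65 (0.60 to 0.70), 0.46 (0.40 to 0.51) and 0.74 (0.66 to 0.81). In the E13.5 control 7 of 24 Hox genes were past 1.5-fold higher (17.9% of all genes) and 4 lower (8.48%), with a median of -0.01 against 0.10. In the E14.5 control 10 of 23 were higher (22.4% of all genes) and 5 lower (8.86%), with a median of -0.03 against 0.17.

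The libraries labelled as mutants gave like counts within themselves. In the library labelled G1KO 9 of 23 Hox genes were past 1.5-fold higher in interzone-like cells (20.0% of all genes) and 6 lower (8.35%), with a median of 0.05 against 0.15. In the library labelled DCKO 10 of 22 were higher (22.9% of all genes) and 4 lower (8.16%), with a median of 0.52 against 0.18. Hox genes past 1.5-fold therefore lay on both sides, and each HoxD gene past 1.5-fold (Hoxd4 and Hoxd8 to Hoxd11) was on the interzone-like side. Genes past 1.5-fold on the chondrocyte-like side in at least 1 library were Hoxa2, Hoxa3, Hoxa4, Hoxa6, Hoxa7, Hoxb9, Hoxc5 and Hoxc9, most of them from few UMIs. Their intervals included 0 for each of the 4 genes of the library labelled DCKO and for all but Hoxc9 of the 5 genes of the E14.5 control. They also included 0 for Hoxa4 and Hoxa6 of the E13.5 control and for Hoxa2, Hoxb9 and Hoxc5 of the library labelled G1KO. The remaining genes on the interzone-like side were Hoxa9, Hoxa10, Hoxa11, Hoxa13, Hoxc8, Hoxc10 and Hoxc11. On that side the interval of Hoxd4 included 0 in both libraries labelled as mutants.

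HoxD set interzone-like most apart from chondrocyte-like cells. Its sum stood at 137, 86.9, 58.7 and 52.1 CPM there and at 65.2, 23.9, 22.9 and 15.3 CPM in chondrocyte-like cells, which is 2.10-fold, 3.64-fold, 2.56-fold and 3.41-fold higher. Hoxd8, Hoxd9, Hoxd10 and Hoxd11 were each past 1.5-fold higher in interzone-like cells of every library. The 4 genes lie side by side in the cluster. HoxD was not confined to interzone-like cells: at E13.5 Hoxd11 stood at 51.5 CPM in fibroblast-like, 53.0 CPM in other mesenchymal and 86.5 CPM in tendon-like cells.

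Hoxd11, the lower leg gene, stood at 44.2, 19.5, 14.4 and 18.0 CPM in interzone-like and 21.0, 3.62, 3.17 and 2.25 CPM in chondrocyte-like cells (2.10-fold, 5.38-fold, 4.55-fold and 8.04-fold). Hoxd10 stood at 16.0, 14.0, 9.57 and 6.02 CPM against 7.30, 1.94, 2.14 and 1.17 CPM (2.19-fold, 7.19-fold, 4.46-fold and 5.15-fold). Both genes were thus further apart between the classes at E14.5 than at E13.5. Hoxd9 stood at 61.9, 35.7, 23.5 and 20.1 CPM against 28.4, 12.2, 11.9 and 7.92 CPM, and Hoxd8 at 10.7, 15.0, 9.47 and 6.85 CPM against 6.59, 4.89, 4.55 and 3.31 CPM.

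Hoxc9 went the opposite way, with 20.4, 16.6, 17.3 and 15.1 CPM in interzone-like and 46.4, 27.1, 27.2 and 15.6 CPM in chondrocyte-like cells. It was past 1.5-fold lower in interzone-like cells of the E13.5 control, the E14.5 control and the library labelled G1KO, and equal between the classes in the library labelled DCKO (-0.04). Hoxa13 was past 1.5-fold higher in interzone-like cells of the same 3 libraries, at 4.34, 3.83 and 0.926 CPM against 1.07, 0.627 and 0.242 CPM. In the library labelled DCKO 1 UMI of Hoxa13 was left in interzone-like cells.

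**Figure D4:**
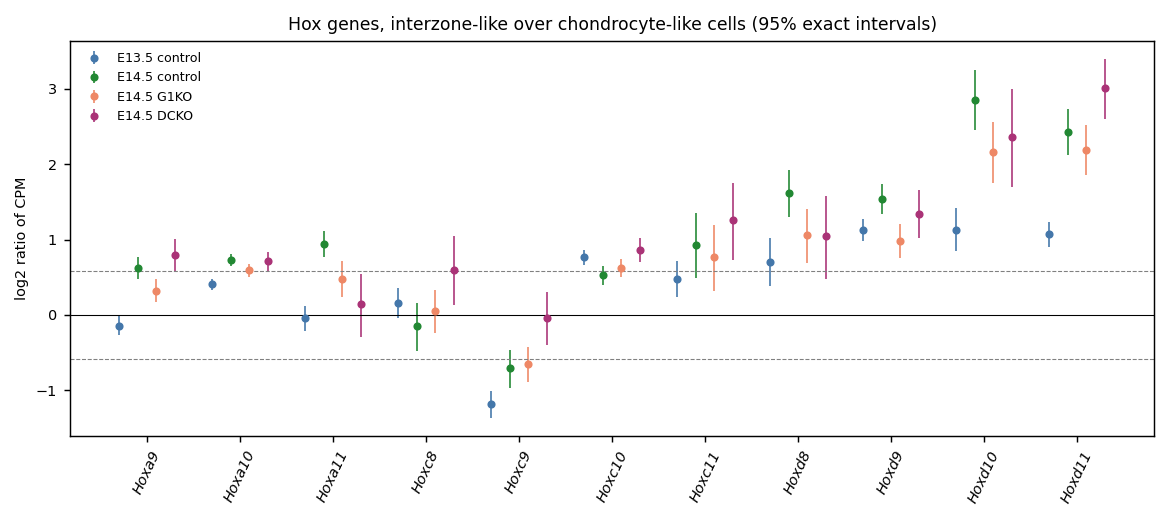
Log2 ratio of CPM in interzone-like over chondrocyte-like cells of the same library for 11 Hox genes of groups 8 to 11, with 1 color per library, 95% counting intervals and dashed lines at 1.5-fold. Hoxd8 to Hoxd11 lie above the upper line in all 4 libraries (Hoxd11 from 1.07 to 3.01), while Hoxc9 lies below 0.

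Chondrocyte-like cells were also split by Ihh, the signal made by prehypertrophic chondrocytes, with a gate added after the class levels were seen. Hoxc9 stood at 71.7, 68.6, 40.5 and 12.8 CPM in the cells with an Ihh UMI (807, 386, 572 and 787 cells) and at 29.6, 20.9, 24.3 and 16.2 CPM in those without. Hoxd11 stood at 16.1, 2.50, 0.416 and 0.670 CPM with Ihh and at 24.3, 3.79, 3.77 and 2.61 CPM without. Hoxc9 was thus higher in cells with Ihh in the first 3 libraries and not in the library labelled DCKO. Hoxd11 was lower in cells with Ihh in all 4, from 144, 16, 4 and 8 UMIs in those cells. The whole Hox sum stood at 412.4, 328.2, 237.7 and 118.6 CPM with Ihh and at 559.9, 322.5, 300.1 and 230.7 CPM without. Cells with Ihh were deeper, with medians of 9859, 15544.5, 15930.5 and 13949 UMIs against 7210.0, 8039.5, 8032 and 7453.

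Promoter sequences of the posterior HoxD genes are shown because these genes were higher in interzone-like than in chondrocyte-like cells of every library. Each is the 300 bases around an annotated start on GRCm38.p6 (RefSeq transcripts, plus strand of chromosome 2), and capitals mark matches on either strand to TGATTNAT (Hox with Pbx), TTTACGA (posterior Hox), TTTATG (Cdx) or TAATTA (homeodomain). Of 32851 mouse promoters 3.22%, 0.597%, 11.9% and 5.29% hold these motifs, and of 24 Hox promoters 2, 2, 5 and 2 do. Hoxd9 and Hoxd10 hold none.

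Hoxd9 (chr2:74697513-74697812): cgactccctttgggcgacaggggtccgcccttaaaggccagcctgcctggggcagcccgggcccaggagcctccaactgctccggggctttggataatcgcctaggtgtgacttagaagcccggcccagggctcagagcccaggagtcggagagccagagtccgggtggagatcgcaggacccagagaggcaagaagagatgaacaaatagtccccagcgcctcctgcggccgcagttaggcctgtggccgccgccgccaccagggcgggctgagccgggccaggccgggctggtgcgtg

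Hoxd10 (chr2:74691641-74691940): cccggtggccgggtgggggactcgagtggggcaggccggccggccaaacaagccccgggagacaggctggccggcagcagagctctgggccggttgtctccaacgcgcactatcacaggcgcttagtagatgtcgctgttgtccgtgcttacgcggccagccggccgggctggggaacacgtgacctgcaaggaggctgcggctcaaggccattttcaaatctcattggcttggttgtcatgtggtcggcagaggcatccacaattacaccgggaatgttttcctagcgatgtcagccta

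Hoxd11 (chr2:74679308-74679607): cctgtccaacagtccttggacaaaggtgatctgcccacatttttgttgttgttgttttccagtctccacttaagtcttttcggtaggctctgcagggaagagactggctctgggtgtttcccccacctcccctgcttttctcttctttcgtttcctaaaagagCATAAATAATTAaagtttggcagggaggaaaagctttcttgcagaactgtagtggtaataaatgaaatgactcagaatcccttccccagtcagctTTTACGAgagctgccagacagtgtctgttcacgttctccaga

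Hoxd11 (chr2:74682073-74682372): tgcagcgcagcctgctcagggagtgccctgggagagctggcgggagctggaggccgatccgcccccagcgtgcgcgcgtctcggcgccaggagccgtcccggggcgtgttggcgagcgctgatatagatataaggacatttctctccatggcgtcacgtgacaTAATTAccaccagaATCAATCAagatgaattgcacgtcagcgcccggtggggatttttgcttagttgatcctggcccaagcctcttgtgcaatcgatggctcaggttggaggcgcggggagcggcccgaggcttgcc

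The first Hoxd11 promoter holds a Cdx and a homeodomain match side by side with no base between, and a posterior Hox match. The second holds a homeodomain and a Hox with Pbx match. A match is a feature of the sequence and not a measured site. Median GC was 57.6% over the Hox promoters and 52.7% over all promoters.

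Pbx, Meis and Pknox proteins bind DNA together with Hox proteins, and 9 of their genes were followed as cofactors. Between the controls 5 of 9 were past 1.5-fold lower at E14.5, with a median of -0.83, among them Pbx2 (81.3 to 41.9 CPM), where 17.9% of all genes were lower. For the library labelled G1KO over control 0 of 9 passed 1.5-fold (median 0.05, with 5.37% of all genes lower and 4.39% higher). For the library labelled DCKO 3 were lower (median -0.18, with 14.7% of all genes lower), among them Meis2 (33.3 to 19.8 CPM). These are values of all mesenchymal cells. Meis2 was lower in interzone-like (log2 ratio -1.39) and chondrocyte-like cells (-0.55) of the library labelled DCKO. In its fibroblast-like cells Meis2 was higher (48.3 to 86.7 CPM, 0.843, 0.585 to 1.102).

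Of the noncoding genes of the clusters 5 of 8 were past 1.5-fold lower at E14.5 (17.9% of all genes), with a median of -1.07. Among these, Hoxb3os (88 against 31 UMIs, E13.5 control first), Hotair (47 against 14), Hoxaas3 (36 against 21) and Haglr (16 against 5) rested on few UMIs. The interval of Hoxaas3 included 0. Hoxa11os, transcribed across Hoxa11 on the other strand, stood at 42.5, 8.15, 5.22 and 3.43 CPM. Over all mesenchymal cells the antisense gene was thus above Hoxa11 at E13.5 and in each E14.5 library below it. In interzone-like cells of the E13.5 control the antisense gene was below Hoxa11 (18.45 against 30.59 CPM). Of genes beside the clusters 1 of 6 was past 1.5-fold lower at E14.5 (Mtx2, 111 to 71.1 CPM), about the share of all genes (17.9%), with a median of -0.14.

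Genes of limb identity were measured beside the Hox genes. Pitx1, which specifies the hindlimb, stood at 428, 213, 204 and 166 CPM, and Tbx4, its hindlimb partner, at 27.4, 27.1, 23.0 and 16.7 CPM. Tbx5, the forelimb gene, was present too, below Tbx4 in each library, at 15.0, 13.6, 13.7 and 12.9 CPM. Of 18 such genes 12 were past 1.5-fold lower at E14.5 (median -0.90, 17.9% of all genes lower). Over the control, 3 were higher and 1 lower in the library labelled G1KO (median 0.00, 4.39% and 5.37% of all genes), and 1 was higher and 4 lower in the library labelled DCKO (median -0.34, 4.45% and 14.7% of all genes).

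In mesenchyme of the future knee the Hox code thus read as Hoxa10 and Hoxc10 of the thigh first, with group 9 next, and with more of group 11 at E13.5 than at E14.5. HoxD belonged to interzone-like more than to chondrocyte-like cells in each library. In the libraries labelled as mutants Hoxa11 was lower than in the E14.5 control, and Hoxa10, Hoxa9, Hoxd9 and Hoxc8 were lower in the library labelled DCKO, of which Hoxd9 alone stayed past 1.5-fold with TMM factors. Each group is 1 library with 1 set of embryos. Sex make-up differed between the controls, and between the E14.5 control and both libraries labelled as mutants. Gates on marker genes decide which cells are compared, so differences between libraries are descriptions of these libraries.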

How the data were processed

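UMI counts per gene and cell, deposited by the authors without normalization, were used for 4 libraries (10x 3' v3.1; Cell Ranger 6.1.2 per the file headers; mm10 and Seurat 3 per the labels). Whole numbers and unequal totals were checked in the files. Depth ranged from 84188147 to 100344565 UMIs per library. The Hox genes and the other gene lists were chosen with earlier results of these data known.

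Barcodes were kept from 200 up to 6000 genes and up to 10% mitochondrial UMIs. This removed 183, 89, 80 and 67 cells above 6000 genes, 27, 94, 112 and 66 below 200 genes, and 119, 226, 264 and 175 for mitochondrial UMIs (a cell may fail 2 limits), in the order E13.5 control, E14.5 control, library labelled G1KO, library labelled DCKO. Doublets were kept, and cells that met 2 gates (11, 2, 8 and 2) were set aside.

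Cells were gated by the number of marker genes with a UMI: 3 of 5 for interzone-like, 6 of 8 for chondrocyte-like, 4 of 7 for fibroblast-like with at most 2 chondrocyte markers, 3 of 8 for muscle-like, 3 of 7 for endothelial-like, 3 of 7 for macrophage-like, 4 of 9 for erythroid-like, 4 of 8 for glial-like and 3 of 6 for mural-like. A mesenchymal cell had 2 of 7 limb mesenchyme markers or 3 of 8 chondrocyte markers, at least 1000 UMIs and no other class. Interzone-like cells at the required number of markers were 301, 173, 261 and 195, and 2558, 1752, 2307 and 2211 cells were 1 marker short. For chondrocyte-like cells these were 608, 402, 518 and 878, and 1006, 423, 571 and 686. For fibroblast-like cells they were 717, 301, 473 and 318, and 3599, 2541, 2738 and 2632. Median markers per interzone-like cell of the E13.5 control were 5 interzone, 4 chondrocyte and 2 fibroblast, and per chondrocyte-like cell 1, 7 and 2. Ungated cells were 1905, 829, 1338 and 1149.

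Within each library the UMIs of a class were added up and expressed as CPM. Levels carry exact Poisson intervals, ratios exact conditional intervals and shares Clopper-Pearson intervals (95%, for thinned shares at the nearest whole number of expected cells). These were tested on simulated data. With 1 library per group no test, p-value or standard error was computed, and cells are not replicates. A gene was tested where both groups together held at least 20 UMIs and counted where it passed 1.5-fold. Hox genes with at least 20 CPM in mesenchymal cells of any library were named with all 4 levels, and those past 1.5-fold in a comparison that is described gene by gene were named. Members of other lists past 1.5-fold or with at least 20 CPM could be named. A count of 0 takes its upper limit from its interval. Detection per cell is the exact expectation after thinning to 3000 UMIs.

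Lists fixed beside the Hox genes were cofactors (9 genes), limb identity (18), noncoding genes of the clusters (10 of 13 in the files), genes beside the clusters (10, of which 6 were tested) and sex and quality (5). For the library labelled DCKO over G1KO, cofactors had 2 genes lower (median -0.32), limb identity 1 higher and 5 lower (-0.35), noncoding genes 1 higher and 2 lower of 7, and genes beside the clusters none (-0.22), beside 9.98% lower and 3.16% higher of all genes. Noncoding genes had 1 higher and 1 lower in each of the libraries labelled G1KO (median 0.16) and DCKO (-0.06) over control. Genes beside the clusters had none past 1.5-fold for the library labelled G1KO (-0.19) and 1 lower for the library labelled DCKO (-0.31). Of all genes 5.37% were lower and 4.39% higher for the library labelled G1KO, and 14.7% lower and 4.45% higher for the library labelled DCKO.

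Python 3.11.15, numpy 2.4.6, pandas 2.3.3, scipy 1.17.1, matplotlib 3.10.9, R 4.3.3 and edgeR 4.0.16 were used, with GENCODE M21 on GRCm38 for positions. Alternatives were other cell filters and gates, removal of cells with markers of a second class, mean CPM per cell, single classes, TMM factors, a total without abundant genes, the sum without Hoxa10, single clusters, other UMI minima and other depths. The authors' clusters and tests over cells were not used here.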

Additional observations from a re-analysis of the deposited data

Results flagged for a closer look

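For Hoxa7 and Hoxc9 the ratio over the E14.5 control or the library labelled G1KO differed in direction between cell classes. For the library labelled DCKO over control, the log2 ratio of Hoxa7 was 0.74 (-0.42 to 1.93, 17 against 12 UMIs) in fibroblast-like cells, -1.52 (-2.93 to -0.34, 7 against 37) in interzone-like cells and -0.96 (-1.24 to -0.68, 182 against 273) in chondrocyte-like cells. Over the library labelled G1KO it was 0.84 (-0.21 to 1.88), -1.14 (-2.56 to 0.07) and -0.80 (-1.08 to -0.52) in the same order of classes. For Hoxc9 the log2 ratio of the library labelled DCKO over control was 0.61 (0.12 to 1.11, 82 against 63 UMIs) in fibroblast-like cells and -0.80 (-0.92 to -0.68, 1000 against 1339) in chondrocyte-like cells. The intervals of Hoxa7 in fibroblast-like cells included 0. Whether these differences between classes are more than differences between single libraries was not tested.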

How the results depend on the processing

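The log2 ratio of the Hox sum was -0.67 for age (E14.5 control over E13.5 control), -0.18 for the library labelled G1KO over control, -0.55 for the library labelled DCKO over control and -0.38 for the library labelled DCKO over the library labelled G1KO. In this order it was -0.63, -0.14, -0.43 and -0.29 with the mean of CPM per cell and -0.51, -0.093, -0.37 and -0.27 with TMM factors, which raised every log2 ratio by 0.154, 0.082, 0.185 and 0.103. Without the library labelled G1KO over control, where it hardly moved, it was -0.59, -0.51 and -0.33 over all kept cells and -0.63, -0.62 and -0.46 in chondrocyte-like cells. In interzone-like cells it was -0.33 for age, -0.35 for the library labelled G1KO over control and -0.18 for DCKO over G1KO. For age and the libraries labelled G1KO and DCKO over control it was -0.60, -0.10 and -0.46 with a total free of the 50 most abundant, ribosomal and mitochondrial genes, and -0.70, -0.12 and -0.52 without Hoxa10.

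Settings chosen after seeing the data gave, for age, DCKO over control and DCKO over G1KO, -0.47, -0.49 and -0.28 with the class shares of the reference library. In other mesenchymal cells the 4 ratios were -0.44, -0.10, -0.17 and -0.073. In fibroblast-like cells those for age and the library labelled G1KO over control were -0.57 and -0.10, and the direction was reversed for the library labelled DCKO over control (0.072, -0.03 to 0.17, which includes 0) and over the library labelled G1KO (0.17). The cause was not tested. No scaling turned the direction of the Hox sum.

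The log2 ratio of group 11 to group 10 was -1.53, -2.31, -2.61 and -2.68 in the E13.5 control, the E14.5 control and the libraries labelled G1KO and DCKO. It was -1.80, -2.55, -2.78 and -2.84 in chondrocyte-like cells, -1.84, -2.02, -2.48 and -2.40 in interzone-like cells, and -1.47, -2.24 and -2.52 over all kept cells without the library labelled DCKO, where it hardly moved. Cluster A alone gave -2.47, -2.40, -2.81 and -2.92 and cluster C alone -1.75, -3.20, -3.21 and -3.16, while cluster D alone was reversed at 1.85, 0.82, 0.70 and 1.32. The mean of CPM per cell gave -2.22 in the E14.5 control and -2.50 in the library labelled G1KO, where 1 more marker per gate gave -2.70.

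Hox genes past 1.5-fold lower numbered 12, 3, 14 and 8 in the 4 comparisons. The 3 of the library labelled G1KO over control became 1 in chondrocyte-like and 5 in interzone-like cells, the 12 for age became 9 with TMM factors (without Hoxa10, Hoxc5 and Hoxc10), the 14 of the library labelled DCKO over control became 9 with TMM factors (without Hoxa4, Hoxa9, Hoxa10, Hoxc5 and Hoxc8), and the 8 of DCKO over G1KO became 5 with TMM factors and 3 in interzone-like cells. The Hox sum in interzone-like over chondrocyte-like cells (0.35, 0.65, 0.46 and 0.74) was 0.41, 0.74 and 0.82 with 1 more marker per gate in the E13.5 control, the E14.5 control and the library labelled DCKO, and 0.29, 0.56, 0.40 and 0.57 with 1 fewer, both chosen after seeing the data. Any Hox gene was found in 89.2%, 77.9%, 74.4% and 63.5% of mesenchymal cells at 5000 UMIs and in 92.7%, 87.4%, 84.4% and 76.6% without thinning, against 77.6%, 63.0%, 60.0% and 51.2% at 3000 UMIs.

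Among the alternatives for these main results, 74 values moved and 6 were reversed in direction, and the other 60 moved little. For single genes 105 values stayed and 53 moved, and 156 of 158 kept their sign. The others were Hoxb2 for DCKO over G1KO (0.63), at -0.14 in chondrocyte-like cells, and Hoxc9 in interzone-like over chondrocyte-like cells of the library labelled DCKO (-0.042), at 0.018 with 1 more marker per gate. No paired analysis was possible because each group has 1 library. At these depths genes below 1 CPM rest on few UMIs. Ratios of Hox genes between libraries were not computed for glial-like, endothelial-like and mural-like cells.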
